A study of Mus musculus with 2 samples.

Results

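The renin-angiotensin system genes described here are Ren1, Agt, Ace, Enpep, Agtr1a, Agtr1b and Atp6ap2, 7 of the 32285 genes listed for each scRNAseq library. They were found by their gene symbols. One library was made from a control kidney and one from an ischemic kidney, both from male C57BL/6J mice, wildtype and 19 weeks old. The ischemic kidney had 27 minutes of ischemia and 24 hours of reperfusion, and the control was the uninjured kidney of the other side, so it also came from an operated animal. The sources used here do not state whether both kidneys came from the same mouse. As each condition is a single library, the differences below carry no test and cannot be compared with the spread between mice.

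The renin-angiotensin system raises blood pressure and retains sodium. Agt encodes angiotensinogen, the substrate from which the protease renin, encoded by Ren1, cuts angiotensin I. Angiotensin converting enzyme (Ace) turns this into angiotensin II, aminopeptidase A (Enpep) trims angiotensin II to angiotensin III, and the type 1 receptors (Agtr1a and its paralog Agtr1b in mice) carry most of the known actions of angiotensin II. Atp6ap2 encodes the (pro)renin receptor, which is also an accessory protein of the vacuolar proton pump. In the kidney, renin is known to be released by juxtaglomerular cells in the wall of the afferent arteriole.

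In GENCODE M21 (GRCm38, the same build as mm10), all 7 are protein-coding genes. Agt (ENSMUSG00000031980) lies on chromosome 8, 124556534 to 124569706, minus strand. Ren1 (ENSMUSG00000070645) lies on chromosome 1, 133350510 to 133360325, plus strand. Ace (ENSMUSG00000020681) lies on chromosome 11, 105967945 to 105989964, plus strand, and is overlapped by the antisense gene Gm11651. Enpep (ENSMUSG00000028024) lies on chromosome 3, 129269175 to 129332720, minus strand, with the processed pseudogene Gm42628 inside it on the other strand. Agtr1a (ENSMUSG00000049115) lies on chromosome 13, 30336441 to 30382867, plus strand, and is overlapped by the sense intronic gene Gm48161 on the same strand. Agtr1b (ENSMUSG00000054988) lies on chromosome 3, 20314473 to 20367177, minus strand. Atp6ap2 (ENSMUSG00000031007) lies on the X chromosome, 12587801 to 12617049, plus strand. How the counting treated strand and how it shared reads between Agtr1a and Agtr1b are not given in the sources used here.

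To show how the members differ at their start sites, the 30 bases from 45 to 16 bases before each RefSeq start (GRCm38.p6) were read for the 6 members with an entry in the promoter table. Ace has 2 such starts, and only the window of its first one holds the letters searched. Capitals mark the letters TATAAA or, read on the other strand, TTTATA. Such letters stand in this window of 4 members and in 895 of 32851 promoters (2.72%), searched on both strands. A match is a description of the letters and not a measured binding site.
Agt (chr8:124569722-124569751, minus strand): tctccaccccttgagTATAAAtaagcctgc
Ren1 (chr1:133350629-133350658, plus strand): tgtgatacatggtgtgTATAAAagaaggct
Ace (chr11:105967903-105967932, plus strand): ggtggtggctgggtTTTATAatccgcaggg
Ace, second start (chr11:105975144-105975173, plus strand): acactgcaggcttggctcttattggccggt
Agtr1b (chr3:20367193-20367222, minus strand): acgcccctttgctgTATAAAttgtagctgt
Enpep (chr3:129332765-129332794, minus strand): ttaactcgctccagttcagaaggggcaggc
Atp6ap2 (chrX:12587714-12587743, plus strand): cgtctcgctcgtgtagcggcgtagttggcg

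Each captured RNA molecule is counted once by a unique molecular identifier (UMI). After filtering, 12586 control and 13116 ischemia cells remained, with 124679362 and 128733541 UMIs and medians of 3839 and 2138.5 UMIs per cell. The libraries shared 58 cell barcodes. Clusters were named from marker genes, and the names end in "-like": proximal tubule (PT), thin limb, thick ascending limb (TAL), distal convoluted and connecting tubule (DCT-CNT), collecting duct principal cells (CD-PC), intercalated cells (IC), podocytes, endothelial cells (EC), pericytes, macrophages, neutrophils (PMN), T cells and B cells. Of these 13 types, 10 had at least 50 cells in each library. Cells left unnamed made up 43.2% of control and 50.6% of ischemia cells. Levels are given as CPM, the UMIs of a gene over all UMIs of the group's cells, scaled to a total of 1000000. Ratios are ischemia over control, and the 95% intervals cover counting error only. The levels of the 7 genes by cell type are shown in the plot of CPM by named type.

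**Figure D1:**
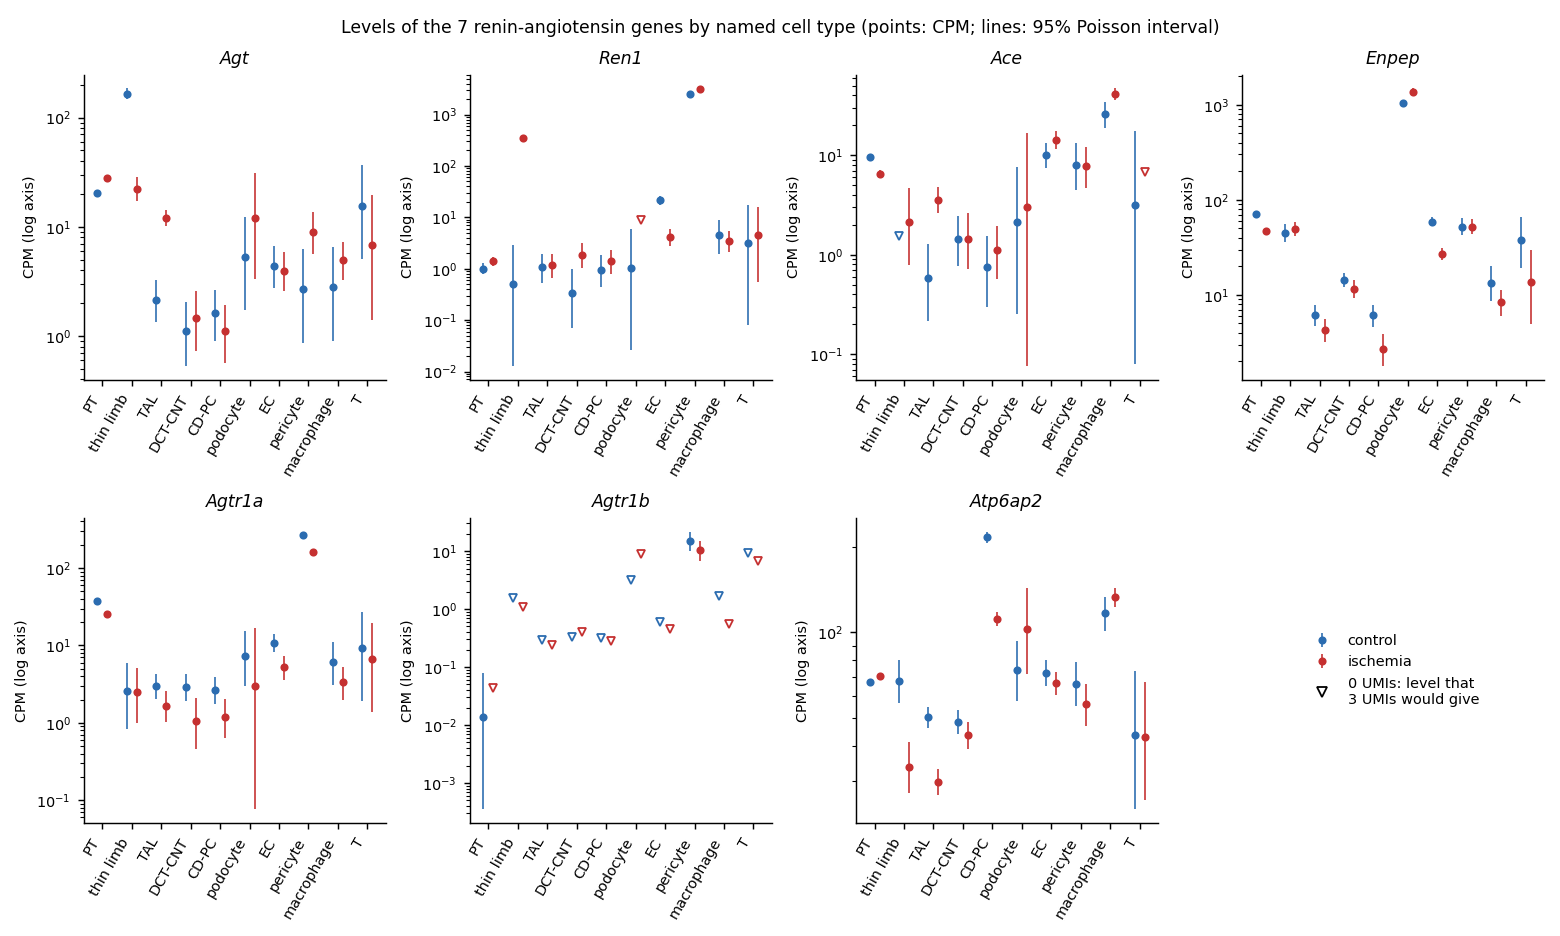
CPM (log axis) of each of the 7 genes in the 10 named types with at least 50 cells in each library, control in blue and ischemia in red, with 95% Poisson intervals; open triangles stand for 0 UMIs and are drawn at the level of 3 UMIs. Ren1 and Agtr1b stand out in pericyte-like cells, Enpep in podocyte-like cells and Agt in control thin limb-like cells, while Atp6ap2 is found in all 10 types.

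Agt, the substrate, was highest in thin limb-like cells of the control kidney, and there it was much lower in ischemia. It was 166 CPM in control (326 UMIs) and 22.4 CPM in ischemia (63 UMIs), a ratio of 0.135 (0.101–0.177). The difference did not rest on single cells, since without the cell with the most Agt UMIs in each library the levels were 148 and 20.1 CPM. Agt was found in 41 of 102 control cells (40.2%) and 24 of 95 ischemia cells (25.3%), at median depths of 11114.5 and 16694 UMIs. DCT-CNT-like cells, taken as background, held an Agt UMI in 2.16% of control and 2.27% of ischemia cells at median depths of 19319.5 and 21844 UMIs. TAL-like cells, the background used for Ren1, Enpep, Agtr1a and Agtr1b, were not used here and held 22 and 151 Agt UMIs. When each thin limb-like cell was thinned to 1000 UMIs, the shares were 8.82% and 2.13%.

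Thin limb-like cells were clustered again, and most of their Agt lay in the first of 3 sub-clusters, led by Fst and Aqp1. Its top 10 genes also held Slc6a18, Fxyd2 and Havcr1, whose part in the result was not tested. In this sub-cluster Agt was 248 CPM in 62 control cells and 36.2 CPM in 46 ischemia cells, a ratio of 0.146 (0.108–0.195). In the second, led by Htr4 and Corin, it was 24.6 and 2.16 CPM (13 and 2 UMIs), and in the third, led by Ren1 and Tagln, 73.3 and 14.8 CPM (18 and 5 UMIs). All 3 sub-clusters were thus lower in ischemia. The third, with 14 control and 18 ischemia cells, scored best on the pericyte markers, which goes against the thin limb name. The summed level of the 8 thin limb markers was 6831 CPM in control and 5206 CPM in ischemia, and their part in the Agt result was not tested.

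In PT-like cells, which held 72.7% of all control Agt UMIs and 78.6% of those in ischemia, Agt went the other way. It was 20.5 CPM in control (1468 UMIs) and 27.8 CPM in ischemia (1897 UMIs), a ratio of 1.36 (1.27–1.46). All 3 PT-like clusters were higher in ischemia. The ratio was 1.41 in cluster 1 (led by Inmt and Acy3), 1.75 in cluster 2 (with the S1 segment gene Slc5a12) and 1.14 in cluster 5 (with the S3 segment gene Slc7a13). Cluster 5 had the highest Agt level of the 3 in both libraries, at 32.3 and 36.9 CPM.

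Agt was also higher in TAL-like cells in ischemia, at 2.15 and 12.02 CPM (22 and 151 UMIs), a ratio of 5.60 (3.57–9.20). In pericyte-like cells the levels were 2.67 and 9.05 CPM, a ratio of 3.39 (1.25–11.5) that rests on 5 and 22 UMIs. Markers of the S3 segment moved with Agt in TAL-like cells, where their 8 genes summed to 81.2 CPM in control and 178 CPM in ischemia, while the 10 general PT markers summed to 997 and 416 CPM. The 9 markers of injured tubule, among them Havcr1, Lcn2 and Spp1, summed to 11932 and 84031 CPM in these cells. Their part in the result was not tested.

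Ren1, which encodes renin, lay almost wholly in pericyte-like cells, which held 93.9% of its control UMIs and 84.5% of its ischemia UMIs. All 10 pericyte markers were detected in this class, with summed levels of 9239 CPM in control and 13569 CPM in ischemia. Their part in the Ren1 result was not tested. The class was mixed, with 165 fibroblast-like, 143 vascular smooth muscle-like and 91 mesangial-like cells among its 535, and no sub-cluster was named for pericytes. Ren1 had 2491 CPM in control (4668 UMIs, 240 cells) against 3160 CPM in ischemia (7683 UMIs, 295 cells), a ratio of 1.27 (1.22–1.32). Few cells carried most of these UMIs. The 10 cells with the most Ren1 UMIs held 83.5% of all control and 77.8% of all ischemia Ren1 UMIs.

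The single highest pericyte-like cell had 1785 Ren1 UMIs of its 9592 UMIs in control and 2671 of 10510 in ischemia. As CPM of that cell alone these are 186093 and 254139, so Ren1 made up a large part of all RNA counted in both cells. Without these cells the class stood at 1546 and 2070 CPM, a ratio of 1.34 (1.28–1.40). The ratio turned below 1 when cells were weighted equally (0.923), with finer clusters (0.920) and with a marker gate in place of clusters (0.944). After thinning to 1000 UMIs it was 0.978, with an interval that spans 1 (0.889–1.08). It was 3.58 when the cells with the top 8% of doublet scores were left out. The direction of Ren1 in pericyte-like cells therefore depends on the processing.

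Cells with Ren1 were also counted. At least 10 Ren1 UMIs were found in 19 of 240 control cells (7.92%, 4.83–12.1) and in 44 of 295 ischemia cells (14.9%, 11.1–19.5). At least 100 were found in 9 and 14 cells, and at least 1000 in 1 and 1. At least 1 UMI was found in 23.8% and 28.5% of cells, and in 15.9% and 17.6% after thinning to 1000 UMIs. In TAL-like cells, as background, 2.22% and 2.89% held a Ren1 UMI, and in T cell-like cells 1.01% and 1.71%, at median depths of 3014 and 3405 UMIs. Median depth in pericyte-like cells was 5139 UMIs in control and 6140 in ischemia, so the higher number of cells with 10 UMIs in ischemia went with greater depth, and the part of depth in it was not tested.

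The ischemia library had more cells with a middle number of Ren1 UMIs. Among the cells with at least 10, the median level per cell was 21073 CPM in control (lowest 585, highest 186093) and 5445 CPM in ischemia (lowest 519, highest 254139). The ranges overlap over nearly their whole length, as the plot of Ren1 UMIs per cell shows. The median depth of these cells was 4292 UMIs in control and 8226.5 in ischemia.

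**Figure D2:**
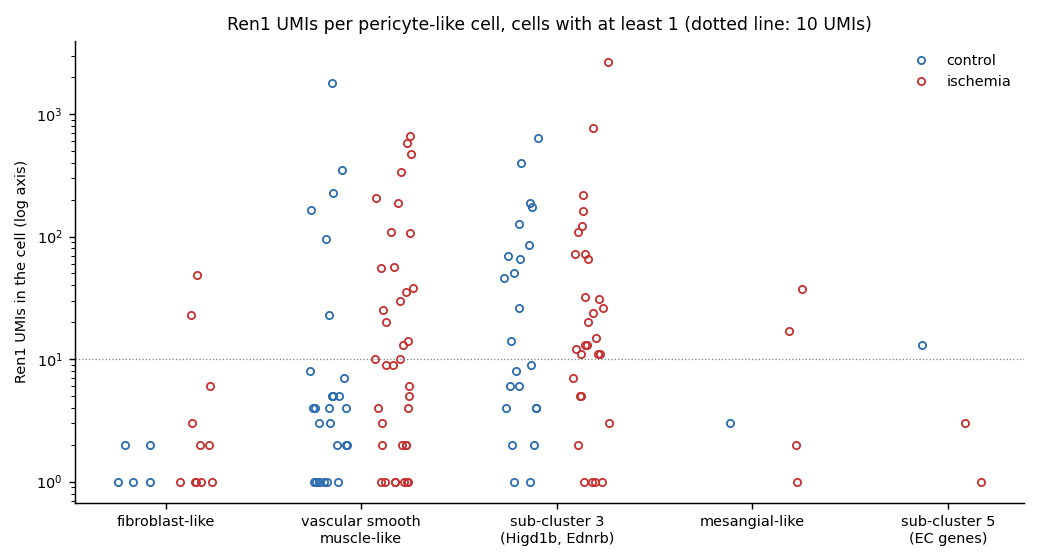
Ren1 UMIs (log axis) in each pericyte-like cell with at least 1, by sub-cluster, control in blue and ischemia in red; the dotted line marks 10 UMIs. Cells above the line sit mainly in the vascular smooth muscle-like sub-cluster (6 control and 19 ischemia cells) and in sub-cluster 3 (12 and 21 cells).

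Pericyte-like cells fell into 5 sub-clusters, and 2 of them held nearly all Ren1. Sub-cluster 3, unnamed and led by Higd1b, with Ednrb and Ren1 among its top 10 genes, had 7926 CPM in control and 9707 CPM in ischemia, and 5392 and 4051 CPM without the highest cell of each library. Of the marker lists used for these sub-clusters, it scored best on the 6 pericyte markers, but 0 of them were among its top 10 genes. The vascular smooth muscle-like sub-cluster had 5462 and 3529 CPM, and 1904 and 2787 CPM without the highest cells. In both sub-clusters the ratio thus changed sides of 1 with a single cell per library. The share of cells with at least 10 Ren1 UMIs was 25% (12 of 48) and 30.0% (21 of 70) in sub-cluster 3, and 8.96% (6 of 67) and 25% (19 of 76) in the vascular smooth muscle-like sub-cluster, with 95% intervals of 3.36–18.5 and 15.8–36.3 in the latter. These intervals overlap. The other sub-clusters held few such cells, with 2 of 102 fibroblast-like and 2 of 40 mesangial-like cells in ischemia, 0 of 63 and 0 of 51 of them in control, and 1 of 11 control and 0 of 7 ischemia cells in sub-cluster 5.

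Outside pericyte-like cells, the Ren1 values of thin limb-like and EC-like cells rested on single cells. In thin limb-like cells the counts were 1 UMI in control and 970 in ischemia, but 967 of the 970 lay in 1 cell of 28679 UMIs. Without it the ischemia level was 1.08 CPM. In EC-like cells 107 UMIs were counted in control and 27 in ischemia, and 89 of the 107 lay in 1 cell. Without the highest cells the levels were 3.62 and 3.82 CPM, a ratio of 1.06 (0.553–2.05). In the large unnamed cluster 0, with median depths of 895 and 798 UMIs, Ren1 was 12.9 CPM in control and 39.0 CPM in ischemia, a ratio of 3.02 (2.32–3.97), and it was spread over 178 ischemia cells, of which 2 reached 10 UMIs. The 10 pericyte markers summed to 79.0 and 112 CPM in this cluster, and their part in the result was not tested.

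Cells with at least 10 Ren1 UMIs were set beside the other pericyte-like cells, and the 5 genes with the highest fold among those with at least 50 UMIs in the former were taken. Since Ren1 chose these cells, the values are a description. Akr1b7, an aldo-keto reductase known as a marker of renin cells, was 903 CPM in the 63 cells and 60.5 CPM in the other 472, and was found in 45 of the 63, with 207 of its 488 UMIs there in 1 cell. Tent5a, a poly(A) polymerase, was 104 against 27.9 CPM and was found in 27 of the 63. The other 3 of these genes rested on 1 cell each. This holds for S100a8 (71 of 74 UMIs in 1 cell), S100a9 (84 of 87) and the principal cell gene Fxyd4 (94 of 104). Agtr1a was 233 CPM in the Ren1 cells and 204 CPM in the others, with overlapping intervals of 194–278 and 190–219, and Gja5, which encodes connexin 40, was 57.4 and 72.8 CPM. Other listed genes did differ beyond counting error. Adrb1 was 11.1 (4.08–24.2) and 1.86 (0.747–3.83) CPM, on 6 and 7 UMIs. Ptger4 was 9.25 (3.01–21.6) and 37.4 (31.5–44.2) CPM, and Ctsb 496 (438–559) and 272 (256–289) CPM.

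Ace, the converting enzyme, had its highest level among the named types in macrophage-like cells, with 25.7 CPM in control (46 UMIs) against 41.0 CPM in ischemia (222 UMIs), a ratio of 1.60 (1.16–2.25). It was found in 17 of 288 control cells (5.90%) and 69 of 575 ischemia cells (12%), at median depths of 5559.5 and 8656 UMIs. In DCT-CNT-like cells, taken as background, the shares were 2.80% and 3.12%. As for Agt, TAL-like cells were not used as background, and they held 6 and 45 Ace UMIs. Thinned to 1000 UMIs, the interval of the macrophage-like ratio reached 1 (2.19, 0.997–5.46).

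When macrophage-like cells were clustered again, nearly all Ace lay in 1 of 4 sub-clusters, and within it the interval of the ratio spanned 1. This sub-cluster 2 was led by Chil3, Saa3 and S100a8, genes known from monocytes and inflamed myeloid cells. It held 42 of the 46 control and 217 of the 222 ischemia Ace UMIs, and its Ace level was 119 CPM in control and 97.9 CPM in ischemia, a ratio of 0.826 (0.591–1.18). It made up 48 of 288 macrophage-like cells in control and 237 of 575 in ischemia. At resolution 0.6 the class held a finer sub-cluster led by Adgre4 and Ace, with 42 control and 113 ischemia cells. Another, led by Arg1 and Cxcl3, had 6 control and 126 ischemia cells. Ace levels in these were not computed, so the ratio of sub-cluster 2 does not give the difference within the cells that carry Ace. In sub-cluster 1, led by the complement genes C1qa and C1qc, Ace had 4 UMIs in each library. Sub-cluster 4, led by dendritic cell genes such as Ccr7, Clec9a and Xcr1, had 0 Ace UMIs in both libraries, which allows up to 16.4 and 5.64 CPM. Sub-cluster 1 held 197 of the 288 control and 196 of the 575 ischemia cells, so the make-up of the class differed between the libraries. Neutrophil markers, 7 in number, moved with Ace over the whole class, with 18.4 CPM in control against 256 CPM in ischemia, and their part in the result was not tested. The sub-clusters carry no names because no marker list for macrophage subtypes was used.

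PT-like cells held 77.4% of control Ace UMIs and 47.5% of those in ischemia. Their Ace was 9.63 CPM in control (690 UMIs) and 6.43 CPM in ischemia (438 UMIs), a ratio of 0.668 (0.591–0.754). It was lower in each PT-like cluster, with ratios of 0.639, 0.511 and 0.714 in clusters 1, 2 and 5. Cluster 5, with S3 genes, had the highest level at 20.0 and 14.3 CPM, and cluster 2, with S1 genes, the lowest at 2.43 and 1.24 CPM.

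Ace in EC-like cells was concentrated in a small sub-cluster. Sub-cluster 7, with Mgp, Eln, Vegfc and Jag1 among its top genes, had 163 CPM in 15 control cells and 182 CPM in 20 ischemia cells, a ratio of 1.12 (0.658–1.95). Peritubular-like cells had 5.98 and 7.40 CPM. In glomerular-like cells the levels were 8.97 and 37.3 CPM, a ratio of 4.15 (1.39–14.9) on 5 and 13 UMIs. In TAL-like cells Ace was 0.585 CPM in control (6 UMIs) and 3.58 CPM in ischemia (45 UMIs), a ratio of 6.12 (2.60–17.6), beside the same S3 and injured tubule markers given for Agt.

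**Figure D3:**
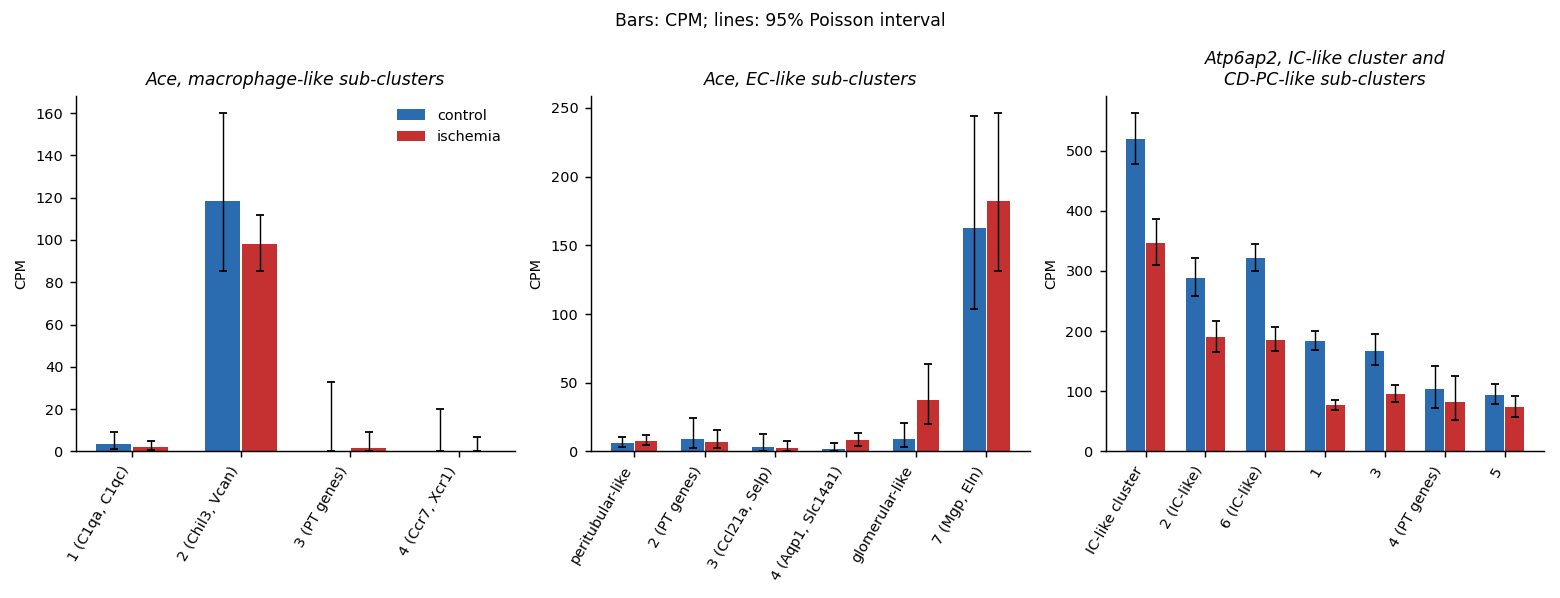
CPM with 95% Poisson intervals of Ace in the sub-clusters of macrophage-like cells and of EC-like cells, and of Atp6ap2 in the IC-like cluster and the sub-clusters of CD-PC-like cells, control in blue and ischemia in red; EC sub-cluster 6, with 3 ischemia cells, is not drawn. Ace stands out in macrophage sub-cluster 2 (119 and 97.9 CPM) and EC sub-cluster 7 (163 and 182 CPM), and Atp6ap2 is lower in ischemia in every group drawn.

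Enpep, which encodes aminopeptidase A, was highest in podocyte-like cells, with 1047 CPM in control (993 UMIs, 95 cells) against 1355 CPM in ischemia (448 UMIs, 63 cells), a ratio of 1.29 (1.15–1.45). All 8 podocyte markers were detected there, with summed levels of 37798 and 38657 CPM. Enpep was found in 62.1% and 66.7% of these cells, and after thinning in 54.8% and 50.9%, against 10.9% and 6.61% of TAL-like cells. The direction did not hold with a marker gate, which took 76 control and 107 ischemia cells and gave a ratio of 0.470 (0.420–0.525).

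In the other types with much Enpep the level was lower in ischemia or differed within counting error. PT-like cells, which held 69.1% of control and 68.8% of ischemia Enpep UMIs, had 71.7 and 46.5 CPM, a ratio of 0.649 (0.621–0.678). All 3 PT-like clusters were lower, with ratios of 0.554, 0.758 and 0.541. EC-like cells had 59.0 and 27.0 CPM, a ratio of 0.458 (0.378–0.553), and in peritubular-like cells alone the levels were 87.7 and 44.8 CPM. The 10 PT markers moved with this in EC-like cells, with 2966 CPM in control against 1091 CPM in ischemia, and their part in the result was not tested. In pericyte-like cells Enpep was 52.3 and 52.2 CPM, a ratio of 0.999 (0.761–1.31), and in thin limb-like cells 44.8 and 49.1 CPM, a ratio of 1.10 (0.833–1.45). Of the 3 thin limb-like sub-clusters the third, which scored best on the pericyte markers, had an interval above 1. Its levels were 48.9 and 115 CPM, with a ratio of 2.36 (1.21–4.95) on 12 and 39 UMIs.

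Agtr1a, the main type 1 receptor gene, was highest in pericyte-like cells, with 271 CPM in control (507 UMIs) against 159 CPM in ischemia (387 UMIs), a ratio of 0.588 (0.514–0.673). A UMI of it was seen in 52.5% of cells in control and 41.4% in ischemia, and in 16.7% and 13.4% after thinning. TAL-like cells held an Agtr1a UMI in 4.44% and 3.31%, although they were deeper. EC markers moved with it in this class, with 10 genes summing to 2318 CPM in control and 1557 CPM in ischemia, and their part in the result was not tested.

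Mesangial-like cells had the highest Agtr1a level of the pericyte sub-clusters in both libraries and did not differ beyond counting error, at 484 CPM in 51 control cells and 521 CPM in 40 ischemia cells, a ratio of 1.08 (0.859–1.34). Their leading genes include the TAL gene Slc12a1. Sub-cluster 3 had 320 and 222 CPM, a ratio of 0.693 (0.511–0.942). Vascular smooth muscle-like cells had 66.5 and 51.4 CPM, a ratio of 0.773 (0.481–1.25), and fibroblast-like cells 90.6 and 46.3 CPM, a ratio of 0.511 (0.287–0.910). Sub-cluster 5, led by EC genes such as Kdr, had 11 control and 7 ischemia cells with median depths of 38597 and 33540 UMIs. It held 164 of the 507 control and 80 of the 387 ischemia Agtr1a UMIs of the class, at 398 and 274 CPM, a ratio of 0.689 (0.520–0.905).

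**Figure D4:**
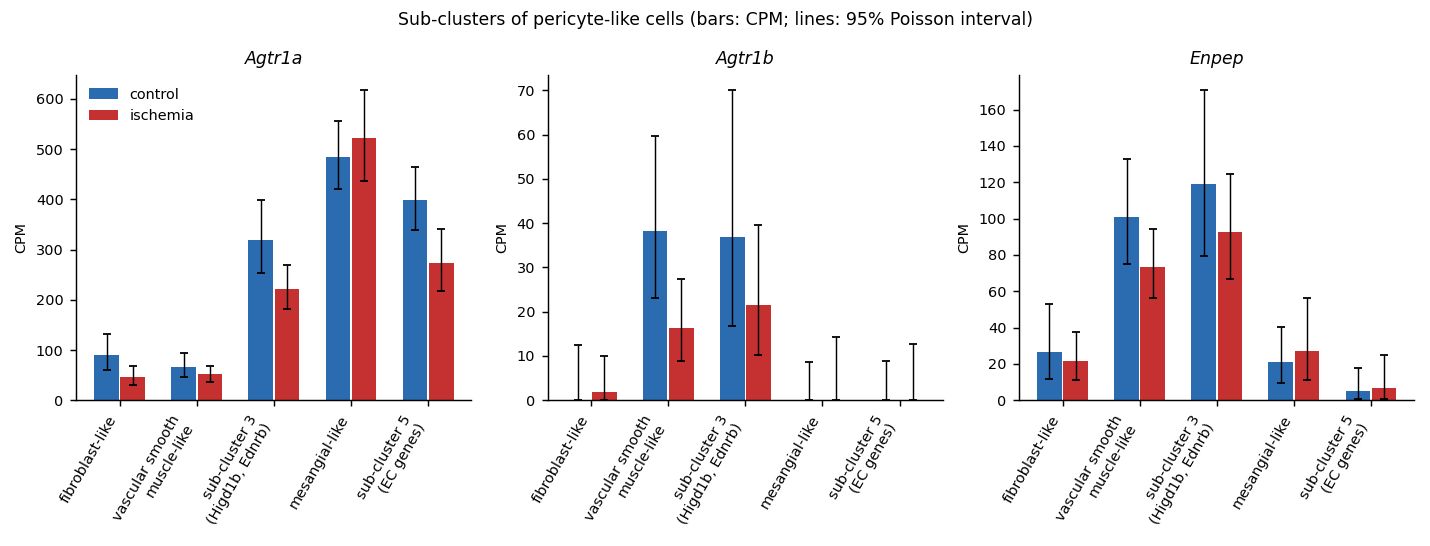
CPM with 95% Poisson intervals of Agtr1a, Agtr1b and Enpep in the 5 sub-clusters of pericyte-like cells, control in blue and ischemia in red. Agtr1a is highest in mesangial-like cells (484 and 521 CPM), while Agtr1b is found in vascular smooth muscle-like cells (38.3 and 16.4 CPM) and sub-cluster 3 (36.9 and 21.5 CPM).

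PT-like cells held 75.5% of control and 73.3% of ischemia Agtr1a UMIs. Agtr1a was 37.1 and 25.4 CPM there, a ratio of 0.684 (0.643–0.727), and it was lower in each PT-like cluster, with ratios of 0.763, 0.689 and 0.598. Cluster 2, with S1 genes, had the highest level of the 3 at 44.9 and 30.9 CPM. EC-like cells had 10.8 and 5.19 CPM, a ratio of 0.480 (0.303–0.751). Of their 54 control and 34 ischemia UMIs, 18 and 16 came from sub-cluster 2, which is led by PT genes (ratio 0.449, 0.214–0.933). Sub-cluster 4, led by Aqp1, held 16 and 2, a ratio of 0.0889 (0.00992–0.378). It also held 92 of the 107 control Ren1 UMIs of EC-like cells. Peritubular-like cells held 11 and 11 Agtr1a UMIs, a ratio of 0.873 (0.343–2.22).

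Agtr1b, the paralog of Agtr1a, was rare and nearly confined to pericyte-like cells. Only 31 UMIs were counted in all control cells and 25 in all ischemia cells, and 28 and 25 of these lay in pericyte-like cells. The level there was 14.9 and 10.3 CPM, a ratio of 0.688 whose interval spans 1 (0.385–1.22). The interval lay below 1 with finer clusters (0.281–0.893) and with the marker gate (0.238–0.797). Agtr1b UMIs were found in 19 of 240 control cells (7.92%) and 18 of 295 ischemia cells (6.10%), and in 0 of 496 and 0 of 484 TAL-like cells, which allows shares of up to 0.605% and 0.620%. Within the class it lay in vascular smooth muscle-like cells, at 38.3 and 16.4 CPM with a ratio of 0.427 (0.198–0.899), and in sub-cluster 3, at 36.9 and 21.5 CPM with a ratio of 0.583 (0.213–1.62). These are the sub-clusters that also held Ren1. No Agtr1b UMI was found in the mesangial-like cells of either library, where 3 UMIs would have given 7.09 and 11.7 CPM.

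Atp6ap2 was found in all named types and was highest in collecting duct cells, where IC-like cells lay above CD-PC-like cells in both libraries. In ischemia CD-PC-like cells lay below macrophage-like cells, whose levels are given further on. CD-PC-like cells had 216 CPM in control (2020 UMIs) and 111 CPM in ischemia (1207 UMIs), a ratio of 0.514 (0.478–0.552). IC-like cells, with 58 control and 46 ischemia cells, had 519 and 346 CPM, a ratio of 0.667 (0.580–0.765). The CD-PC-like cluster itself was mixed, since 2 of its 6 sub-clusters were IC-like. Sub-cluster 4 was led by PT genes, and sub-cluster 5 had the DCT-CNT markers Wnk1, Trpm6 and Slc8a1 among its top genes. Sub-cluster 3 had the DCT-CNT markers Trpv5 and Calb1 there. The 8 IC markers moved with Atp6ap2 in the CD-PC-like class, at 3379 and 1995 CPM, and their part in the result was not tested.

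In every sub-cluster of CD-PC-like cells Atp6ap2 was lower in ischemia, and in 4 of the 6 the interval lay below 1. IC-like sub-cluster 6, with Slc26a4, the pendrin gene of type B intercalated cells, had 321 and 186 CPM, a ratio of 0.578 (0.509–0.655). IC-like sub-cluster 2, with Aqp6, a gene of type A intercalated cells, had 288 and 190 CPM, a ratio of 0.660 (0.553–0.786). Sub-cluster 1, led by S100a6 and Lcn2, had 183 and 77.2 CPM, a ratio of 0.421 (0.367–0.483). Sub-cluster 3, with Trpv5 and Calb1, had 167 and 95.2 CPM, a ratio of 0.569 (0.460–0.703). The share of CD-PC-like cells with an Atp6ap2 UMI went the other way, at 72.4% in control and 76.5% in ischemia, but depth was also greater in ischemia (medians of 16328 and 21462 UMIs), and thinned to 1000 UMIs the shares were 16.3% and 9.84%.

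Other tubule segments beyond the PT also had less Atp6ap2 in ischemia. The ratio was 0.593 (0.518–0.679) in TAL-like cells, at 50.3 and 29.9 CPM, and 0.499 (0.380–0.655) in thin limb-like cells, at 67.7 and 33.8 CPM. In DCT-CNT-like cells it was 0.900 (0.777–1.04). PT-like cells differed little, at 66.9 and 70.1 CPM, a ratio of 1.05 (1.01–1.09), and their clusters were not of 1 direction, with 1.11 (1.05–1.17) in cluster 2 and 0.924 (0.858–0.995) in cluster 5. In macrophage-like cells the levels were 117 and 133 CPM, a ratio of 1.14 (0.975–1.33), and in EC-like cells 72.1 and 66.2 CPM, a ratio of 0.919 (0.798–1.06).

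Set against all genes with at least 20 UMIs in a type in both libraries together, the members past a 2-fold difference were counted in each type. In EC-like cells 3 of 6 measured members were lower by 2-fold or more (Ren1, Agtr1a and Enpep), beside 5.10% of all genes, and 0 were higher, beside 2.90%. For Ren1 this came from the 1 control cell named above. For Agtr1a, EC sub-cluster 4 held 16 of the 54 control and 2 of the 34 ischemia UMIs. In CD-PC-like cells 2 of 5 were lower (Agtr1a and Enpep), beside 6.09%, and 0 higher, beside 7.43%. Both were low there, with Agtr1a at 2.68 and 1.20 CPM and Enpep at 6.11 and 2.67 CPM, and the 10 PT markers moved with them, from 818 CPM in control to 228 CPM in ischemia, while 1 sub-cluster was led by PT genes. Their part in the result was not tested. In TAL-like cells 2 of 6 were higher (Ace and Agt), beside 9.73%, and 0 lower, beside 8.33%. In thin limb-like cells 2 of 4 were lower (Agt and Atp6ap2), beside 8.85%, and 1 was higher (Ren1, from 1 cell), beside 4.83%. In pericyte-like cells 1 of 7 was higher (Agt), beside 3.43%, and 0 lower, beside 3.92%. In DCT-CNT-like cells 1 of 5 was lower (Agtr1a), beside 6.12%, and 0 higher, beside 8.12%. No measured member passed 2-fold in PT-like cells (0 of 6, beside 8.44% higher and 4.68% lower), macrophage-like cells (0 of 6, beside 6.59% and 7.55%), podocyte-like cells (0 of 2, beside 2.74% and 5.76%) or T cell-like cells (0 of 1, beside 5.38% and 4.71%). Over all kept cells it was 0 of 7, beside 10.1% higher and 4.77% lower.

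The median log2 ratio of the measured members lay furthest below that of all genes in CD-PC-like cells, at -0.96 beside -0.01, and in EC-like cells, at -0.60 beside -0.02. In thin limb-like cells it was -0.43 beside -0.03, and in PT-like cells -0.24 beside 0.11. These medians are over 4 to 6 genes. With so few genes they only describe the list. The thin limb-like median counts Ren1, whose ratio there came from 1 ischemia cell. The EC-like median counts Ren1 at a log2 ratio of -2.38, which came from 1 control cell with 89 of 107 UMIs. This median was not computed without that cell.

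Within the ischemic kidney, PT-like cells were also ordered by Havcr1, the gene of kidney injury molecule 1, which was chosen for this with its values in these data known. Cells of at least 5000 UMIs were split into 570 cells with 0 Havcr1 UMIs, 1100 with fewer than 500 CPM and 489 with 500 CPM or more. Ace was higher with more Havcr1, at 2.02, 4.74 and 12.8 CPM. Agtr1a was lower, at 33.0, 26.3 and 16.9 CPM, and so was Enpep, at 60.2, 47.6 and 34.5 CPM. Agt was 25, 27.6 and 31.1 CPM. Median depth differed between these cells, at 17874.5, 32397.5 and 37756 UMIs. In the control kidney the same groups had 2949, 160 and 10 cells. There Ace was 8.88, 18.2 and 13.0 CPM, the last on 3 UMIs, and Agt was 19.1, 39.7 and 86.8 CPM. Agtr1a was 37.4, 36.6 and 17.4 CPM, the last on 4 UMIs, and Enpep 71.2, 83.4 and 56.4 CPM. In the control kidney Ace and Agt were thus also higher in the 160 cells than in the 2949. Median depth differed there as well, at 18972, 29829.5 and 23761 UMIs. Control cells were not split by PT-like cluster, so the part of depth and of cluster mix was not tested.

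The mix of PT-like clusters differed between the Havcr1 groups of the ischemic kidney too, with cluster 5 giving 44 of the 570, 247 of the 1100 and 244 of the 489 cells. Within cluster 5 Ace was 5.29, 12.2 and 17.3 CPM, and within cluster 1 it was 2.26, 6.68 and 12.2 CPM. Within cluster 2 Ace showed no such order, at 1.33, 0.629 and 2.67 CPM. Agtr1a and Enpep kept their order within each of the 3 clusters. Agtr1a was 38.8, 29.8 and 18.9 CPM in cluster 2 and 31.7, 25.4 and 16.7 CPM in cluster 5, and Enpep was 61.8, 50.6 and 30.0 CPM in cluster 2 and 80.7, 49.1 and 37.7 CPM in cluster 5. Agt did not keep 1 order, with 25.1, 21.0 and 17.7 CPM in cluster 2 against 23.3, 30.3 and 39.6 CPM in cluster 1.

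**Figure D5:**
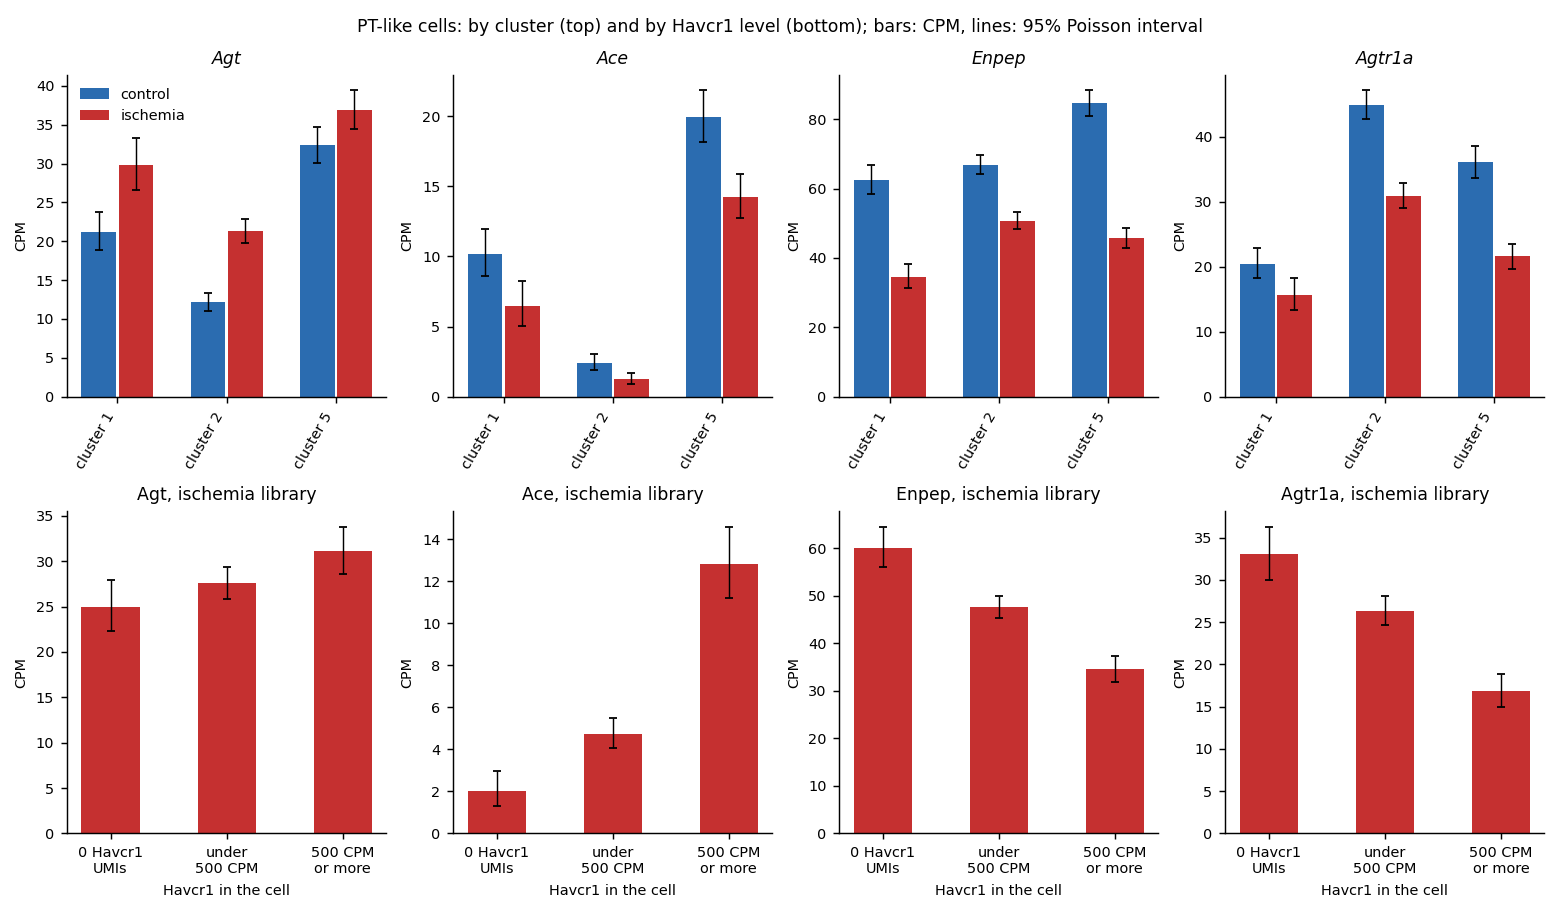
CPM with 95% Poisson intervals in PT-like cells of Agt, Ace, Enpep and Agtr1a; the top row gives the 3 PT-like clusters in control (blue) and ischemia (red), the bottom row the ischemia cells of at least 5000 UMIs by their Havcr1 level. Agt is higher and the other 3 genes are lower in ischemia in each cluster, and with more Havcr1 Ace goes from 2.02 to 12.8 CPM while Agtr1a goes from 33.0 to 16.9 CPM.

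Of 20 other genes of the system, 14 could be measured in the type with their highest level among the 10 types with at least 50 cells in each library. There 3 were higher in ischemia by 2-fold or more (Rnpep, Ctsb and Bdkrb2), 0 were lower by as much, and the median log2 ratio was 0.37. Of all genes, 6.59% were higher by 2-fold in macrophage-like cells, the leading type of Rnpep and Ctsb, and 7.43% in CD-PC-like cells, that of Bdkrb2. In the leading types of the 14 genes, 4.68% (PT-like) to 8.85% (thin limb-like) of all genes were lower by 2-fold. The median log2 ratio of all genes in these types lay between -0.03 (thin limb-like) and 0.11 (PT-like). Bdkrb2, the bradykinin B2 receptor, was 6.64 and 37.8 CPM in CD-PC-like cells, a ratio of 5.69 (4.35–7.56), and 4.59 and 24.8 CPM in TAL-like cells. In the smaller IC-like group it was higher still, with 35.4 and 166 CPM. Ctsb, the lysosomal protease cathepsin B, was 494 and 1185 CPM in macrophage-like cells, a ratio of 2.40 (2.23–2.57). Rnpep, which encodes aminopeptidase B, was 42.4 and 88.3 CPM there, a ratio of 2.08 (1.63–2.69).

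Other peptidases of the system were also measured. Anpep, which encodes aminopeptidase N, was 33.5 and 19.7 CPM in PT-like cells, a ratio of 0.588 (0.550–0.629), and so was lower in ischemia, as Enpep was in these cells. Klk1, the kallikrein of the distal nephron, was 10952 and 6928 CPM in CD-PC-like cells, a ratio of 0.633 (0.627–0.639). It was also lower in TAL-like cells (0.212, 0.206–0.219), but higher in DCT-CNT-like (1.15, 1.14–1.17) and IC-like cells (1.14, 1.07–1.20). Mme, which encodes neprilysin, was 277 and 318 CPM in podocyte-like cells, a ratio of 1.15 (0.904–1.44). In CD-PC-like cells it was lower in ischemia, at 174 and 80.5 CPM, a ratio of 0.462 (0.425–0.502). The ratio was 0.494 (0.339–0.709) in IC-like cells, but 1.30 (1.04–1.61) in DCT-CNT-like and 1.21 (1.06–1.37) in PT-like cells. Agtr2, the type 2 receptor, had 0 UMIs in all kept cells.

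Of 14 genes of renin control and release, 13 could be measured in their leading type. There 2 were higher by 2-fold or more, 2 were lower, and the median log2 ratio was -0.26. The median of all genes in these leading types lay between -0.02 (EC-like) and 0.11 (TAL-like). Of all genes, 3.43% were higher by 2-fold in pericyte-like and 6.59% in macrophage-like cells, while 8.33% were lower in TAL-like and 7.55% in macrophage-like cells. Akr1b7 was higher in pericyte-like cells, at 83.2 and 230.3 CPM, a ratio of 2.77 (2.31–3.33), and 207 of its 560 ischemia UMIs lay in 1 cell. Ptgs2, the inducible cyclooxygenase, was higher in macrophage-like cells, at 23.4 and 77.8 CPM, a ratio of 3.32 (2.41–4.67). In the smaller PMN-like group, with 19 control and 191 ischemia cells, its level was far above that, at 395 and 727 CPM, a ratio of 1.84 (1.37–2.53). The neutrophil markers given for Ace also rose in macrophage-like cells, and their part in the Ptgs2 result was not tested. In TAL-like cells, the segment next to the macula densa, Ptgs2 was 4.39 and 15.7 CPM, a ratio of 3.57 (2.57–5.06). Casr, the calcium-sensing receptor, was lower in TAL-like cells, at 164 and 55.9 CPM, a ratio of 0.342 (0.312–0.373). Nos1, which marks the macula densa, had 123 and 185 UMIs in TAL-like cells, a ratio of 1.23 (0.972–1.55). The connexin gene Gja5 was 81.1 and 62.9 CPM in pericyte-like cells, a ratio of 0.776 (0.616–0.978). In EC-like cells it went the other way, at 24.6 and 64.1 CPM, a ratio of 2.60 (2.13–3.21).

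The genes whose levels were most alike to each member were sought over the 26 groups of named type and library, among 14315 genes, by Pearson's r of log2(CPM + 1). These groups share libraries and differ in depth, so r is a description. Ren1 was most like the pericyte gene Rgs5 (r = 0.911), then Col6a1 (0.902) and Shc3 (0.898). Agtr1b was most like Trpc4 (0.998), then Pi15 and Slc38a11 (0.993 each), each of them with under 300 UMIs in all. Since Agtr1b was counted almost only in pericyte-like cells, its r rests on the pericyte-like group of each library. Agtr1a was most like Gucy1a1 (0.871), which encodes a subunit of soluble guanylate cyclase, then Map3k7cl (0.866) and Trpc1 (0.853). Enpep was most like the podocyte gene Clic5 (0.906), then Palld (0.891) and Htra1 (0.879). Ace was most like Myo7a (0.856), then Apobec1 (0.796) and Apoe (0.788). Agt was most like Rnf183 (0.820), then Phgdh (0.811) and Atp6v0e2 (0.810). Atp6ap2 was most like Rnasek (0.879), then Atp6ap1 (0.873), another accessory protein of the same proton pump, and Scand1 (0.867).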

How the data were processed

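The authors deposited raw UMI counts per gene and barcode for both kidneys, made with Cell Ranger 7.0.0 on mm10 and not normalized. Whether intronic reads were counted is not given in the sources used here. The filter on cells asked for 200 genes or more, a total between 500 and 150000 UMIs, and a mitochondrial part of 55% or less. Libraries were integrated by anchors and clustered in Seurat 5.3.0 (R 4.3.3) at resolution 0.3 and seed 42, on 30 principal components of 2000 variable genes, the listed genes left out, after scaling each cell to 10000. It gave 18 clusters, of which 2 stayed unnamed.

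Each cluster was scored against every list of markers by the mean log2 ratio to the median of the clusters (pseudocount 10 CPM). It was named for the best list if at least 3 of its markers had 10 UMIs and if the top 10 genes by fold (at least 50 UMIs) held more markers of that list than of any other. Pericyte-like, EC-like, macrophage-like, thin limb-like and CD-PC-like cells were clustered again. No doublets were removed beyond the UMI limit, since Scrublet (scanpy 1.11.5) called 0 in both libraries and so had not worked. For thinning to 1000 UMIs, shallower cells were left out: 1 control and 11 ischemia pericyte-like cells, 11 and 10 podocyte-like, 6 and 11 macrophage-like, 1 and 2 CD-PC-like, and 0 and 1 thin limb-like.

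The genes named are the 7 members, 20 other renin-angiotensin genes, 14 genes of renin control and release, the 3 genes most alike to each member (at least 200 UMIs) and the 5 genes with the highest fold in pericyte-like cells of at least 10 Ren1 UMIs (at least 50 UMIs there). Markers and leading genes of clusters and Havcr1 were named outside this rule, after their values were seen. The members and lists were chosen with earlier results of these data known. Some genes of the lists are counted but not reported here by name.

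Intervals at 95% are exact Poisson for CPM, Clopper-Pearson for shares and exact conditional binomial for ratios. Where no UMI was counted, the limit printed is that of 3 counts. Python 3.11.15 was used with pandas 2.3.3, scipy 1.17.1, numpy 2.4.6 and, for plots, matplotlib 3.10.9. The alternatives were other filters, clusterings, denominators and depths.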

Additional observations from a re-analysis of the deposited data

Results flagged for a closer look

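For the genes below, the ratio of ischemia to control CPM had an interval above 1 in one cell type and below 1 in another, and how often this holds among all genes was not computed. The difference between the types was not tested, because each condition has 1 library. For Agt the ratio was 5.60 in TAL-like cells and 0.135 in thin limb-like cells. For Ace it was 6.12 in TAL-like cells and 0.668 in PT-like cells. For Atp6ap2 it was 1.05 in PT-like cells and 0.499 in thin limb-like cells. For Enpep it was 1.29 in podocyte-like cells and 0.438 in CD-PC-like cells, where the 10 PT markers also differed (818 and 228 CPM). For Ren1 it was 678 in thin limb-like cells and 0.192 in EC-like cells, and both values rest on 1 cell each, with 967 and 89 Ren1 UMIs. Without the highest cell of each library the ratio in EC-like cells was 1.06 (0.553–2.05).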

How the results depend on the processing

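No paired analysis was possible because each condition has 1 library. For the 7 genes, each in its leading type, the ratio of ischemia to control CPM stayed on its side of 1 in 71 of 76 values from the alternatives. The ratio of Ren1 in pericyte-like cells fell below 1 at resolution 0.6 (0.920), with a marker gate (0.944), as the mean of the CPM of each cell (0.923) and thinned to 1000 UMIs (0.978). It was 1.18 with a limit of 25% mitochondrial UMIs. Enpep in podocyte-like cells fell below 1 with the marker gate (0.470) and was 1.05 thinned. Other values that moved beyond the counting interval were Agt in thin limb-like cells thinned (0.181), Agtr1a in pericyte-like cells at resolution 0.6 (0.688) and thinned (0.806), and Atp6ap2 in CD-PC-like cells as the mean over cells (0.608), with nuclear-encoded UMIs as denominator (0.475) and thinned (0.602). Of these, the causes were not tested. The following 2 alternatives were chosen after seeing the data. With the top 8% of doublet scores left out, Ren1 stood at 3.58, and without the cell with the most UMIs of the gene in each library, at 1.34. Ace in macrophage-like cells ranged from 1.55 to 2.19 and Agtr1b in pericyte-like cells from 0.437 to 0.692, both within their counting intervals, but some calls changed. The interval of Agtr1b lay below 1 at resolution 0.6 (0.281–0.893) and with the marker gate (0.238–0.797). Thinned, the intervals of Ren1 (0.889–1.08), Ace (0.997–5.46), Agtr1a (0.523–1.24) and Enpep (0.738–1.49) spanned 1. Without integration no cluster was named CD-PC, so Atp6ap2 has no value there, and the planned removal of doublets called by Scrublet left out no cell.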
